A study of Mus musculus with 8 samples.

Results

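The histone cluster genes were taken as every gene of the count tables whose symbol begins with Hist1h, Hist2h, Hist3h or Hist4h. There were 67 such genes among 32285 features: 6 encode the linker histone H1, 18 encode H2A, 18 encode H2B, 12 encode H3 and 13 encode H4. The data were single-nucleus RNA-seq (snRNA-seq) counts from 8 libraries of P5.5 mice, 4 from the petrous temporal bone (PTB), the skull bone that houses a part of the cerebellum, and 4 from that part, the paraflocculus and flocculus (PF/F). In each tissue, 2 libraries came from wild-type (WT) mice and 2 from Tbx1+/- littermates, which lack 1 functional copy of the transcription factor gene Tbx1 in every cell from the germline on. Each library pooled nuclei of 5 mice on the C57BL/6J background, the sexes in each pool are not given in the sources used here, and the replicate number marks 2 separate batches of animals, called batch 1 and batch 2 here, so that 1 WT and 1 Tbx1+/- library of each tissue belong to each batch. With 2 pooled libraries per group, p-values measure the spread between pools and not between mice. Levels are unique molecular identifiers (UMIs, 1 per captured molecule), added up within each library over all nuclei of a type and given as CPM, counts scaled to the same total of all genes in each sum. They are not divided by transcript length, because each UMI tags the 3′ side of 1 molecule, so an order of members is an order of captured molecules.

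Core histones H2A, H2B, H3 and H4 form the protein spool around which DNA winds, and H1 binds the linker between spools. Most genes of the clusters are replication-dependent: they are transcribed chiefly in S phase, when new chromatin is assembled, and their mRNAs end in a 3′ stem-loop bound by the protein Slbp instead of a poly(A) tail. Libraries primed with oligo-dT, as here, capture such mRNAs only through polyadenylated forms, read-through transcripts or internal A stretches. In the cerebellum of the first postnatal weeks, granule neuron progenitors (GNPs) divide in the external granule layer and then leave the cycle as granule neurons, while Purkinje cells are already postmitotic.

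The stem-loops are shown because they mark the transcripts that oligo-dT should capture least. The canonical histone stem-loop of 16 bases, with a paired stem, was found in the annotated transcripts of 46 of the 67 members, and 26 of them carried the same 16 bases. The lines below give the sequence of 6 members on the transcript's strand (GENCODE transcripts, GRCm38), with the stem-loop in capitals and up to 5 flanking bases in lower case.
Hist1h1e: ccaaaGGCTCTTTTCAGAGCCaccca
Hist1h2ap: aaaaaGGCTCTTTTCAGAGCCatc
Hist3h2ba: ccaaaGGCTCTTTTCAGAGCCacctt
Hist1h3e: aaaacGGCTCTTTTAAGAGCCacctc
Hist1h4d: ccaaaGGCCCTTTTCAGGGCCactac
Hist1h4i: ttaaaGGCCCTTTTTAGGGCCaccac
Every H4 stem-loop found differed from the form that 26 members share, and none of those 26 is an H4 gene. In 37 of the 46 members a transcript model ran over 30 bases past the stem-loop, as in Hist1h1e, Hist3h2ba, Hist1h4d and Hist1h4i, and in 9 it ended within 30 bases, as in Hist1h2ap. No such sequence was found in the models of 21 members, among them Hist1h1b and Hist1h2bc. Some of these models are short, as in Hist1h4k (312 bases) and Hist1h2bl (381 bases), and a model that stops early would miss a stem-loop. A stem-loop not found is thus not one shown to be absent. Members in which a stem-loop was found held 76.3% of the members' summed CPM in GNPs, 80.3% in differentiated granule neurons and 73.9% in chondrocyte progenitors. Their median level was 9.43, 4.64 and 1.04 CPM in the same order. Members in which none was found had medians of 9.55, 5.42 and 0.97 CPM.

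Promoters are shown for 3 members described at length, a linker histone, an H2A and an H4 gene. Each line gives the gene, the position and the 250 bases before the RefSeq start of the gene (GRCm38.p6, minus strand of chromosome 13 in all 3, read 5′ to 3′). Capitals mark the TATA word TATAAA, the CCAAT box, the word AAACACA known from H1 promoters and the octamer ATTTGCAT, on either strand. The H2B gene Hist1h2bg starts inside the Hist1h2ae stretch, at position 23571396 of the plus strand. Words marked in that stretch can therefore belong to either gene.
Hist1h1b, chr13:21780626-21780875: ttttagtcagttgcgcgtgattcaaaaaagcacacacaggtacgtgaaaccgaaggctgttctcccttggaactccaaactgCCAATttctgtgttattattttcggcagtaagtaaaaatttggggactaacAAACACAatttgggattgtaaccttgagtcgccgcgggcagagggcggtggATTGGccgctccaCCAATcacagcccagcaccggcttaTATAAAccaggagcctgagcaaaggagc
Hist1h2ae, chr13:23571221-23571470: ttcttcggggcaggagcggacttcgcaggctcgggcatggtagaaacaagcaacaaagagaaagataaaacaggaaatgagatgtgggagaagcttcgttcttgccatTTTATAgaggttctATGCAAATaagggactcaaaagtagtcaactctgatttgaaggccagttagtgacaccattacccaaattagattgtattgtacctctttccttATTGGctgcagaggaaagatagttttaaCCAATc
Hist1h4i, chr13:22041363-22041612: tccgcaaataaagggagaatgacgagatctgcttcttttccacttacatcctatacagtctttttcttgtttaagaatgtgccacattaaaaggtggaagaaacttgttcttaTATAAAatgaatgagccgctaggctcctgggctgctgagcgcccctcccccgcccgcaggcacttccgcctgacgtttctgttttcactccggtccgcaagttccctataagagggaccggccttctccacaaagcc
Over windows of 300 bases, from 250 before to 50 after the start, 62 members matched a RefSeq promoter. The word TATAAA was present in 56.5% of them and in 13.6% of all 32851 promoters of the table, and CCAAT in 85.5% and 37.4%. All matched H1, H2A, H2B and H3 promoters held CCAAT, whereas 3 of 12 H4 promoters did. AAACACA was present in 14.5% of the members' promoters against 7.18% of all, and 5 of the 9 were H1 genes. The octamer word ATTTGCAT was present in 21% against 1.74%, in 7 H2A and 6 H2B promoters and in no other family. Windows of neighbouring H2A and H2B genes can overlap, as those of Hist1h2ae and Hist1h2bg do, so that 1 site can count for both genes. These are matches of letters only.

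Depth per library was 66835028 to 88677309 UMIs in the PTB and 44713226 to 60627200 UMIs in the PF/F. The study's annotation covered 5981 to 9977 nuclei per PTB library and 9153 to 13835 per PF/F library, with a median depth of 3853 to 4758 UMIs in the PTB and 2610 to 3503 in the PF/F. Any pair of libraries shared 11 to 60 annotated barcodes, at most 0.503% of the smaller library. Each of the 16 markers checked for GNPs, differentiated granule neurons, chondrocyte progenitors and osteoblasts was higher in its own type than in the other annotated nuclei in 4 of 4 libraries. Per the study's methods, the types were curated by marker genes on clusters of these same nuclei, so this is no independent check. Tbx1 itself was measured at 39.3 and 46.3 CPM in the WT PTB libraries of batches 1 and 2 and at 27.6 and 40.1 CPM in the Tbx1+/- libraries, lower within each batch but with overlapping groups, while the PF/F libraries held 8 to 38 Tbx1 UMIs each. In the PF/F, batch 1 and batch 2 stood apart in several respects. Mitochondrial transcripts took 0.967 to 1.05% of UMIs in batch 1 and 0.408 to 0.564% in batch 2, and 79 ribosomal protein genes summed to 31746 to 31909 CPM in batch 1 and 15984 to 18534 CPM in batch 2.

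The members together held 376984 UMIs, 73.5% of them in the PF/F libraries. The 8 most abundant members held 61.2% of these UMIs. Hist1h1e led with 46368 UMIs, followed by Hist1h1b with 44475, Hist1h4d with 31262 and Hist1h2ap with 29840. At the other end, Hist1h2aa and Hist1h2ba, known as germline histones, had 0 UMIs in all 8 libraries, which allows a level of up to 0.00593 CPM over the pooled libraries. Between 1 and 100 UMIs were counted for 4 members, namely Hist1h1t, a testis linker histone, Hist1h2ao, Hist1h2bq and Hist2h2aa2. Many cluster genes are near-identical copies: in 32 members more than 50% of the 50-base words of the transcripts also occur in other genes, so their separate levels are uncertain. This holds for Hist1h2ap (93.1% shared), Hist2h3c1 (100%), Hist1h3e (73.4%), Hist1h4k (71.5%) and Hist1h4b (54.6%), but not for Hist1h1b (0%), Hist1h4d (10.2%), Hist1h4c (19.6%) or Hist1h4i (28.9%). Of the members with few UMIs, Hist1h2ao (93.5%), Hist1h2bq (97.3%) and Hist2h2aa2 (100%) are also such copies, so their low counts need not be low levels. Another gene on the same strand overlaps 7 members. They include Hist3h2a, Hist2h3c1, and Hist1h1e and Hist1h2be, which overlap each other.

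GNPs had the highest histone cluster level of all cell types in the PF/F. Summed over the 67 genes, it was 2660 and 2763 CPM in the WT and Tbx1+/- GNPs of batch 1 and 1912 and 1767 CPM in those of batch 2, a mean of 2276 ± 509 CPM (SD, n = 4). Differentiated granule neurons were at 1582, 1769, 776 and 778 CPM in the same order, and Purkinje cells at 769, 820, 332 and 342 CPM. Within every library GNPs were above both neuron types. GABA interneuron progenitors were at 1596 ± 450.5 CPM, against 997 ± 453 CPM in differentiated GABA interneurons. Immune cells were at 1585 ± 535 CPM, and on few nuclei pericytes (12 to 25 per library) were at 1754 ± 314 CPM and endothelial cells (15 to 65 per library) at 1455 ± 651 CPM. Among the types other than GNPs, neighbours in the order of levels differed by less than the larger of their SDs. The proliferation gene Mki67 was at 252 ± 52.8 CPM in GNPs, 146 ± 31.1 in GABA interneuron progenitors, 49.7 ± 15.5 in differentiated granule neurons and 19.5 ± 9.45 in Purkinje cells. Top2a, the topoisomerase of dividing cells, was at 728 ± 94.5 CPM in GNPs and 33.7 ± 20.4 CPM in Purkinje cells, and Pcna, the replication clamp, at 96.2 ± 10.2 and 20.4 ± 6.33 CPM. Cell types were clustered from these same nuclei, so differences between types are given as descriptions without a test.

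**Figure D1:**
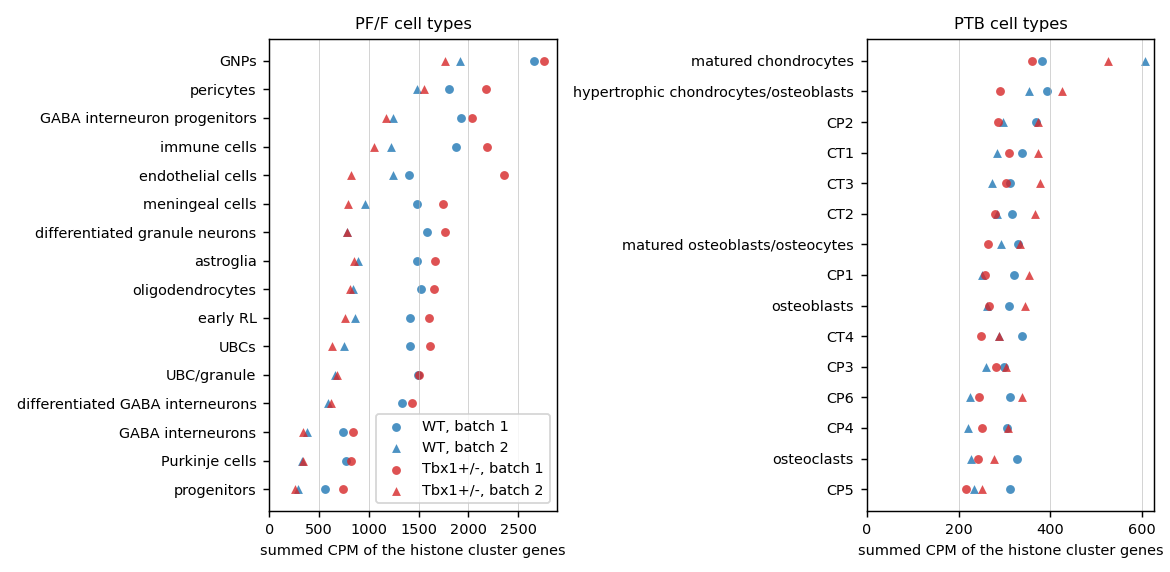
Summed CPM of the 67 histone cluster genes (x axis) in each annotated cell type (y axis, ordered by mean) of the PF/F and the PTB. Each point is 1 library. In the PF/F the batch 1 libraries (circles) lie above the batch 2 libraries (triangles) in all 16 types, whereas in the PTB most types lie between 200 and 400 CPM.

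Counted per nucleus, the difference between PF/F types was smaller. GNPs held a mean of 7.24 and 6.90 histone cluster UMIs per nucleus in the WT and Tbx1+/- libraries of batch 1 and 6.33 and 5.59 in batch 2. Differentiated granule neurons held 5.14, 5.11, 3.05 and 2.94, and Purkinje cells 5.09, 4.63, 2.80 and 2.80. Over all types other than GNPs, the mean was 4.26 to 7.02 UMIs per nucleus in batch 1 and 2.33 to 5.26 in batch 2, although the median depth of the types spanned 2250 to 7419 UMIs in batch 1 and 2417 to 10267 in batch 2. GNPs exceeded Purkinje cells by 2.14, 3.53, 2.27 and 2.78 UMIs per nucleus in the WT batch 1, WT batch 2, Tbx1+/- batch 1 and Tbx1+/- batch 2 libraries. Across the 16 types, which share a library and differ in depth, Spearman's rho between median depth and histone CPM was -0.79 to -0.94 in the 4 libraries, and between median depth and histone UMIs per nucleus -0.66 to -0.90. Purkinje cells, among the deepest types, thus had a CPM below that of differentiated granule neurons with close to the same number of histone UMIs per nucleus. RNA free in the droplets adds a like number of UMIs to every nucleus of a library. The counts had not been corrected for it, and its part in these levels was not tested. By family, H1, H2A, H2B, H3 and H4 made up 29.1, 22.0, 13.9, 7.58 and 27.5% of the sum in the differentiated granule neurons of the WT batch 1 library and 28.2, 22.4, 14.8, 8.47 and 26.1% in its Purkinje cells, against 32.8, 22.9, 13.1, 7.21 and 24.1% in its GNPs. Over the 4 libraries the H1 share was 28.9 to 36.6% in GNPs, 24.8 to 29.1% in differentiated granule neurons and 24.1 to 28.2% in Purkinje cells, and the H2B share was 11.9 to 13.1%, 12.6 to 16.8% and 12.7 to 19.6%.

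**Figure D2:**
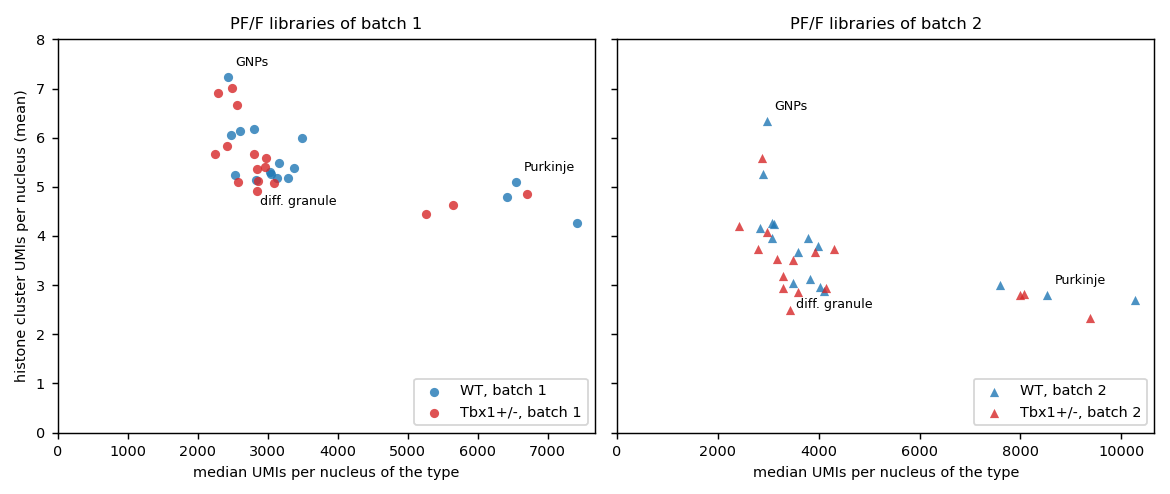
Mean histone cluster UMIs per nucleus (y axis) against the median UMIs per nucleus of all genes (x axis) for the 16 PF/F cell types, batch 1 left and batch 2 right, 1 point per type and library. GNPs lie at 7.24 and 6.33 UMIs per nucleus in the WT libraries, and Purkinje cells at 5.09 and 2.80, with a median depth of 6549 and 8533 UMIs against 2435 and 2966 in GNPs.

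Individual members followed the sum. Among the PF/F types with at least 100 nuclei in every library, GNPs were the highest type for 57 of the 62 members with at least 50 UMIs over all libraries, and for 18.3% of all genes with that many. The linker histone gene Hist1h1b, a single-exon gene at chr13:21779883-21780625 (mm10, minus strand), was the most abundant member in GNPs, at 405 and 301 CPM in the WT libraries of batches 1 and 2 and at 376 and 296 CPM in the Tbx1+/- libraries, and its level in differentiated granule neurons was 203, 76.8, 195 and 80.1 CPM. GNPs were thus higher in each library. Hist1h1e followed in GNPs with 306, 261, 273 and 229 CPM, and the H2A gene Hist1h2ap with 230, 209, 274 and 164 CPM. The H4 gene Hist1h4d had 223 and 98.3 CPM in the WT and 271 and 110 CPM in the Tbx1+/- libraries, so that its batch 1 values were more than double those of batch 2. The other members among the 10 highest were Hist1h2ae (139 ± 37.9 CPM), Hist1h4h (122 ± 63.2), Hist1h4c (90.0 ± 50.4), Hist1h3c (70.3 ± 11.9), Hist1h1c (67.8 ± 8.16) and Hist3h2ba (62.3 ± 24.3). The same 10 members were the 10 highest in differentiated granule neurons, from Hist1h1b (139 ± 69.6 CPM) and Hist1h1e (138 ± 40.8) through Hist1h4d (122 ± 71.1), Hist1h2ap (110 ± 42.9), Hist1h4h (91.5 ± 52.1), Hist1h2ae (71.8 ± 32.9), Hist1h4c (69.7 ± 38.6), Hist3h2ba (58.6 ± 17.2) and Hist1h3c (42.3 ± 15.2) to Hist1h1c (31.9 ± 10.2). By family, H1 genes made up 33.6% of the sum in GNPs, H2A 23.7%, H4 21.7%, H2B 12.8% and H3 8.26%.

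The ratio of GNPs to differentiated granule neurons for the summed level was 1.68 and 2.46 in the WT libraries of batches 1 and 2 and 1.56 and 2.27 in the Tbx1+/- libraries (mean 1.99 ± 0.440, SD, n = 4). Of the 60 members with at least 50 UMIs in annotated PF/F nuclei, 57 were higher in GNPs in 4 of 4 libraries, as were 49.5% of all 20175 genes with that many UMIs. Of the same 60, 35 were higher by more than 1.5-fold in all 4, against 19.6% of all genes. The remaining 7 members had fewer than 50 UMIs. The median member ratio was 2.01, against 1.23 over all those genes, and 53 of the 60 ratios were larger in batch 2, where the median was 2.63, than in batch 1, where it was 1.71. All 5 H1 genes exceeded 1.5-fold in all libraries (median ratio 2.39), as did 10 of 15 H2A (2.01), 11 of 16 H2B (1.96), 6 of 11 H3 (2.18) and 3 of 13 H4 genes (1.46). The ratio was highest for the H3 gene Hist2h3c1, at 13.4, with 2.92 ± 0.240 CPM in GNPs and 0.219 ± 0.151 CPM in granule neurons. Next came the H3 gene Hist1h3d (6.14), the H4 gene Hist1h4i (5.22), the H3 gene Hist1h3g (4.37) and the H2B gene Hist1h2bh (3.52). Hist1h4i was at 52.2 and 60.8 CPM in the GNPs of the WT libraries and at 41.7 and 50.6 CPM in those of the Tbx1+/- libraries, against a mean of 9.83 ± 2.22 CPM in granule neurons. The lowest ratios were those of Hist3h2a (0.895), Hist3h2ba (1.06), Hist1h4c (1.29), Hist1h4a (1.304) and Hist1h4k (1.32). The Hist3 pair on chromosome 11, Hist3h2a and Hist3h2ba, had no difference between the types beyond the spread of the libraries: Hist3h2a was at 16.6 ± 5.45 CPM in GNPs and 18.6 ± 3.66 in granule neurons. Hist4h4, the single gene on chromosome 6, was at 3.07 ± 0.227 and 1.51 ± 0.0996 CPM.

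**Figure D3:**
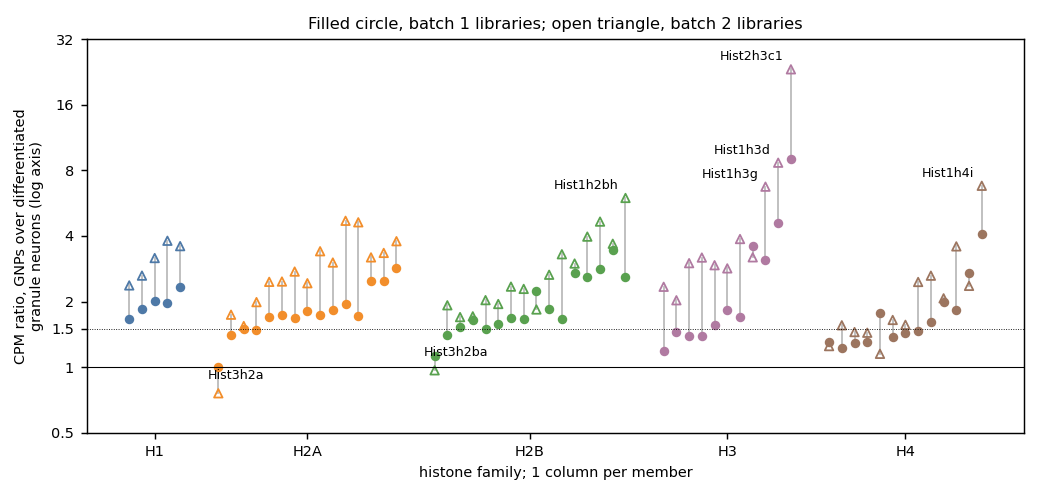
Ratio of CPM in GNPs to CPM in differentiated granule neurons (y axis, log scale) for the 60 members with at least 50 UMIs, 1 column each, grouped by family (x axis). Filled circles are the mean of the batch 1 libraries and open triangles of the batch 2 libraries, and dotted and solid lines mark ratios of 1.5 and 1. Taken over the libraries of both batches together, H4 has the lowest median ratio of the families, 1.46, with ratios from 1.29 to 5.22 (Hist1h4i). The lowest ratios taken in this way are those of Hist3h2a (0.895) and Hist3h2ba (1.06), which are not plotted points.

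A like comparison of GABA interneuron progenitors with differentiated GABA interneurons gave ratios of the sum of 1.44, 2.10, 1.42 and 1.89 in the WT batch 1, WT batch 2, Tbx1+/- batch 1 and Tbx1+/- batch 2 libraries (mean 1.71 ± 0.337). Here 36 of 60 members were higher in 4 of 4 libraries, against 33.4% of all genes. The 10 that exceeded 1.5-fold in all are a share near the 12.2% of all genes that did. Hist1h3d (4.93) and Hist1h4i (3.11), which came next after Hist2h3c1 in the GNP comparison, had the highest ratios among members with at least 50 UMIs.

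In the PTB the summed level over all annotated nuclei was 308 ± 40.6 CPM, against 1332 ± 504 CPM in the PF/F. Chondrocyte progenitors (CPs, the 6 annotated subpopulations together) had a summed level of 326 and 256 CPM in the WT libraries of batches 1 and 2 and of 260 and 333 CPM in the Tbx1+/- libraries, and osteoblasts of 310, 261, 266 and 344 CPM. The ratio of CPs to osteoblasts was 1.05, 0.980, 0.976 and 0.968 (mean 0.994 ± 0.0395), which is no difference in CPM beyond the spread of the libraries. Per nucleus, CPs held fewer histone UMIs than osteoblasts in 4 of 4 libraries, with ratios of 0.921, 0.811, 0.928 and 0.873 (mean 0.883 ± 0.0541). Of the 53 members with at least 50 UMIs, 12 were higher in CPs in 4 of 4 libraries, against 44.8% of all genes, and 7 were lower in all 4, against 18.5%. No member exceeded 1.5-fold in all 4 libraries, against 16.5% of all genes. Mki67 was at 50.8 ± 3.09 CPM in CPs and 38.1 ± 5.39 CPM in osteoblasts, far below its level in GNPs. All annotated PTB types lay between 215 and 607 CPM and between 1.06 and 2.30 histone UMIs per nucleus. Matured chondrocytes had the highest CPM (468 ± 118), on 48 to 254 nuclei per library, and Mki67 there was at 137 ± 91.2 CPM. The H1 gene Hist1h1e led in CPs with a mean of 46.0 CPM (35.0 to 57.3 over the libraries), followed by Hist1h1b (31.3 ± 4.06), Hist1h1c (28.9 ± 4.60), Hist1h2bc (26.5 ± 4.90) and Hist1h4d (12.6 to 26.1).

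The H2B gene Hist1h2bc, known to give polyadenylated transcripts in differentiated cells, departed from this order. In osteoblasts it was the most abundant member by mean, at 42.8, 41.3, 45.8 and 50.2 CPM in the WT batch 1, WT batch 2, Tbx1+/- batch 1 and Tbx1+/- batch 2 libraries, and its ratio of CPs to osteoblasts was 0.589, below 1 in 4 of 4 libraries. In the PF/F it was at 25.8 ± 4.78 CPM in GNPs and 5.44 ± 0.319 CPM in Purkinje cells. Hist1h1c was as abundant in osteoblasts (34.2 ± 2.95 CPM) as in differentiated granule neurons (31.9 ± 10.2 CPM), although the members' sum was 295 ± 39.0 and 1226 ± 524 CPM in these types. Hist2h2be, another H2B gene of this kind, had its highest mean in osteoclasts, at 10.4, 4.65, 9.19 and 11.8 CPM. In WT batch 2, however, other types such as astroglia (6.73 CPM) and GABA interneuron progenitors (6.33 CPM) lay above osteoclasts. Hist2h2be was at a mean of 2.19 ± 0.710 CPM in osteoblasts and of 3.88 ± 0.531 CPM in GNPs.

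Batch differences were then tested with edgeR's quasi-likelihood test on the sums per library, batch 2 against batch 1 with both genotypes in each, and p-values were adjusted by the Benjamini-Hochberg method over all genes tested. In the PF/F the histone cluster level was lower in batch 2 in all 16 cell types and both genotypes, by a factor of 1.14 to 2.89 in CPM. Over all annotated PF/F nuclei, 51 of 61 members tested were called lower in batch 2 at an adjusted p under 0.05 and none higher, and 14.8% of all 20756 genes were called lower. In GNPs it was 28 of 60, with a background of 9.64%, and in differentiated granule neurons 41 of 57, with a background of 12.3%. The median log2 change of the members was -0.85, -0.50 and -0.95 in these 3 fits. That of all genes was 0.00, but the scaling of the libraries holds it near 0, so it is no independent background. DESeq2 called 43, 12 and 33 members lower in the same fits. Shares of all genes are given here and below for the main edgeR fits and for the genotype fit without the WT library of batch 1. Counts from DESeq2 and from the other alternative fits, and counts at an unadjusted p, have no share of their own beside them.

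By family, H4 genes had the largest drop in GNPs. Their median log2 change was -0.86, with 7 of 13 called lower, against -0.31 for H1 (3 of 5), -0.56 for H2A (9 of 15), -0.45 for H2B (6 of 16) and -0.30 for H3 (3 of 11). The difference between families was not tested. Hist1h4c was at 121 and 144 CPM in the WT and Tbx1+/- GNPs of batch 1 and at 46.6 and 47.7 CPM in those of batch 2, without overlap (log2 change -1.51 ± 0.099, SE, adjusted p = 1.89e-07 by edgeR). Hist1h4h was at 158 and 193 CPM in batch 1 and at 68.1 and 69.9 CPM in batch 2 (-1.36 ± 0.099, adjusted p = 3.10e-07 by edgeR). The other members among the 5 smallest p-values were also H4 genes, namely Hist1h4d (-1.26 ± 0.10), Hist1h4b (-2.20 ± 0.29) and Hist1h4k (-1.85 ± 0.25). As a share of the members' sum in GNPs, H4 fell from 24.1 to 16.7% between the batches in WT and from 27.4 to 18.6% in Tbx1+/-. Hist1h4i, the H4 gene with the largest ratio of GNPs to granule neurons, had a log2 change of 0.23 ± 0.12 in GNPs (adjusted p = 0.198 by edgeR), and Hist1h2bc one of 0.35 ± 0.14 (adjusted p = 0.112 by edgeR).

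In differentiated granule neurons the H1, H2A, H2B, H3 and H4 medians were -0.82, -1.02, -0.79, -1.21 and -1.39. The smallest p-values belonged to Hist1h1b (log2 change -1.29 ± 0.06), Hist1h2ae (-1.15 ± 0.08), Hist1h4h (-1.44 ± 0.11), Hist1h3e (-1.33 ± 0.10) and Hist1h2ab (-1.51 ± 0.12), all adjusted p between 1.57e-06 and 1.32e-05 by edgeR. Over all annotated PF/F nuclei they were Hist1h1b (-0.99 ± 0.05), Hist1h2ab (-1.28 ± 0.08), Hist1h3i (-1.26 ± 0.09), Hist1h4c (-1.48 ± 0.10) and Hist1h4h (-1.52 ± 0.11). Members with little batch change over all annotated PF/F nuclei included Hist4h4 (-0.17 ± 0.19), Hist2h2be (0.22 ± 0.16) and Hist1h4i (-0.19 ± 0.10), none of which was called.

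The batch 2 nuclei were deeper than those of batch 1 in the PF/F, and the mitochondrial share and the ribosomal protein sum given above moved in the same direction as the histone level. The summed markers of several cell types also separated the batches without overlap. GNP markers were at 318 to 359 CPM in batch 1 and 257 to 270 CPM in batch 2, astroglia markers at 676 to 760 and 586 to 643 CPM, and oligodendrocyte lineage markers at 100.3 to 110 and 92.2 to 94.9 CPM. Chondrocyte markers were at 45.6 to 46.1 and 43.4 to 44.7 CPM. Higher in batch 2 were Purkinje cell markers (538 to 561 and 590 to 603 CPM), GABA interneuron markers (185 to 199 and 204 to 223 CPM) and endothelial markers (13.8 to 20.4 and 29.2 to 31.96 CPM). The part of any of these in the histone difference was not tested. Counted per nucleus, the summed level of batch 1 was 0.998 to 2.08 times that of batch 2 over types and genotypes. Restricting GNPs to nuclei with at least 2000 genes moved the log2 ratio of the sum, batch 2 over batch 1, from -0.56 to -0.36.

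**Figure D4:**
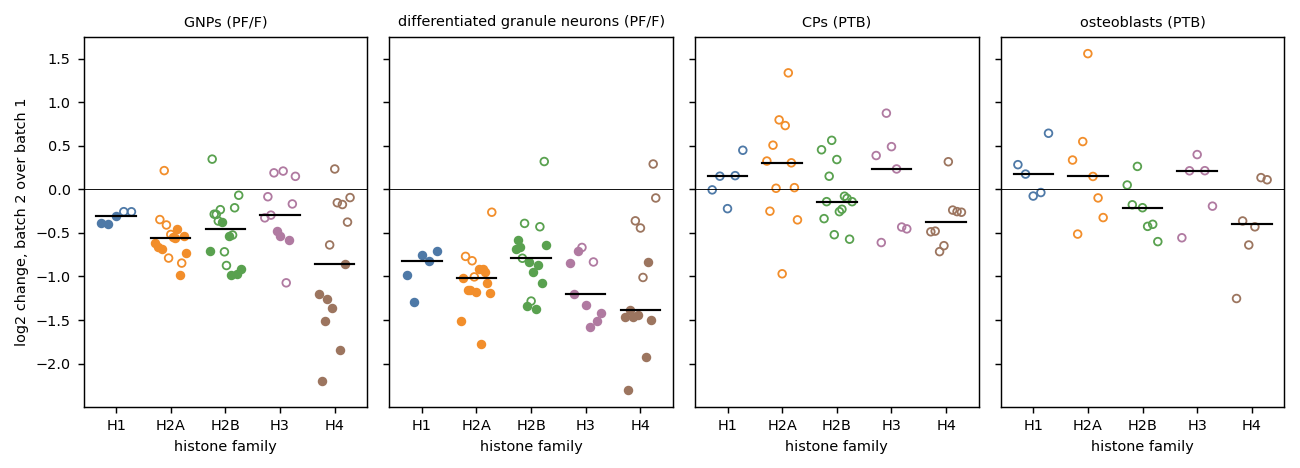
Fitted log2 change of each member tested, batch 2 over batch 1 (y axis), by histone family (x axis) in GNPs and differentiated granule neurons of the PF/F and in CPs and osteoblasts of the PTB. Filled points were called at an adjusted p under 0.05, open points were not, and bars are family medians, which in GNPs run from -0.30 for H3 to -0.86 for H4.

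In the PTB the same comparison called 0 of 57 members over all annotated nuclei, with 5 at an unadjusted p under 0.05 and 2 called by DESeq2, and 0.538% of all genes were called in either direction. In CPs it called 0 of 44 members (5 at an unadjusted p under 0.05, 0 by DESeq2, background 1.97%) and in osteoblasts 0 of 30 (3 at an unadjusted p under 0.05, 1 by DESeq2, background 0.43%). The batches moved in opposite directions in the genotypes: the summed level of CPs changed by -0.35 on the log2 scale from batch 1 to batch 2 in WT and by 0.36 in Tbx1+/-, and 14 of 15 PTB types showed such opposite directions. Ribosomal protein genes were lower in batch 2 in the PTB as well, at 25087 to 31235 CPM in batch 1 and 14126 to 20311 CPM in batch 2, and so was the mitochondrial share, at 1.02% to 1.43% and 0.604% to 0.718% of UMIs. Muscle markers (286 to 289.99 and 71.8 to 103 CPM), osteoblast markers (9320 to 10138 and 8176 to 8647), chondrocyte markers (1383 to 1772 and 1132 to 1353) and, barely, erythroid markers (652 to 901 and 444 to 649.8) were also lower in batch 2 without overlap. The genes of the Purkinje cell list (1056 to 1069 and 1170 to 1245 CPM) and of the GNP list (249 to 275 and 283 to 284) were higher. In bone these lists need not mark such cells. The Purkinje cell list summed to only 538 to 603 CPM in the PF/F, and Atoh1 of the GNP list was at 0 in a PTB library. The part of any of these in the result was not tested. The members with the smallest p-values were the same in all 3 fits. The H2A gene Hist1h2ap was at 8.65 and 11.8 CPM in the CPs of the WT libraries of batches 1 and 2 and at 6.14 and 25.98 CPM in those of the Tbx1+/- libraries, so that the Tbx1+/- batch 2 library stood above the other 3. Its log2 change was 1.34 ± 0.35 in CPs, 1.56 ± 0.34 in osteoblasts and 1.45 ± 0.37 over all nuclei. Hist1h1e changed by 0.45 ± 0.13, 0.64 ± 0.15 and 0.53 ± 0.13, and Hist1h4d by -0.71 ± 0.18, -0.64 ± 0.18 and -0.71 ± 0.17, in the same order, and the adjusted p of these 9 values was 0.0857 to 0.160 by edgeR. Like in the PF/F, the H4 median in the PTB was below 0 (-0.41 over all annotated nuclei), while the H1 and H2A medians were above 0 (0.19 and 0.28).

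The difference between the tissues was tested as an interaction of tissue and batch over all annotated nuclei of the 8 libraries, a test chosen after the batch results were seen. Per the study's methods both tissues were isolated from the mice of a group, so that a PTB and a PF/F library of 1 genotype and batch may hold nuclei of the same mice, and the fit took the 8 libraries as independent. It called 11 of 62 members, all with a more negative change in the PF/F, where 0.768% of all genes were called in that direction. This count rested on single libraries: without any 1 of the 4 PF/F libraries it was 0, without either Tbx1+/- library of the PTB it was 3, and with genotype within tissue as a further term it was 1. With the mice of 1 genotype and batch as a block over both tissues it was 11.

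Genotype had no called effect on the histone cluster genes. The main fit held no term for the batch, so its SEs and p-values include the spread between the batches. Between Tbx1+/- and WT, edgeR called 0 of 61 members over all annotated PF/F nuclei, 0 of 60 in GNPs, 0 of 57 in differentiated granule neurons, 0 of 57 over all annotated PTB nuclei, 0 of 44 in CPs and 0 of 30 in osteoblasts. The background was 0% in each, since no gene at all was called, and DESeq2 called 0 members as well. At an unadjusted p under 0.05 there was 1 member in osteoblasts and none in the other 5 fits. The log2 ratio of the summed level, Tbx1+/- over WT, was 0.06 in batch 1 and -0.11 in batch 2 in GNPs, and -0.33 and 0.38 in CPs. Hist1h1b had a log2 change of -0.05 ± 0.23 in GNPs and of -0.06 ± 0.18 in CPs. In differentiated granule neurons the SE of its change was 0.53. It was there at 203 and 76.8 CPM in the WT libraries of batches 1 and 2, and at 195 and 80.1 CPM in the Tbx1+/- libraries. The smallest p-values in GNPs belonged to Hist1h4f (0.86 ± 0.43), Hist1h3b (0.47 ± 0.25) and Hist1h2bk (-0.81 ± 0.44). In CPs they belonged to Hist1h2bf (0.95 ± 0.39), Hist1h2be (-0.44 ± 0.19) and Hist2h3c1 (0.82 ± 0.44), and in osteoblasts to Hist2h4 (2.46-fold lower, unadjusted p = 0.0173, edgeR), Hist1h3e (0.67 ± 0.38) and Hist2h2aa1 (-0.71 ± 0.44). In differentiated granule neurons they were Hist1h2bg (0.75 ± 0.31), Hist3h2a (-0.32 ± 0.17) and Hist1h3c (0.47 ± 0.31, but -0.0063 without the Tbx1+/- library of batch 1). Over all PF/F nuclei they were Hist1h4i (-0.20 ± 0.14), Hist1h4f (0.49 ± 0.36) and Hist1h3c (0.40 ± 0.30, but -0.071 without that library), and over all PTB nuclei Hist2h4 (-0.58 ± 0.31), Hist1h2br (0.50 ± 0.30) and Hist1h2bc (0.22 ± 0.13). Every adjusted p was above 0.99. With the batch as a further term the calls stayed at 0 in all 6 fits, with 0 to 11 members at an unadjusted p under 0.05. The share of all genes at that unadjusted p is not given here, so these counts have no background beside them. Without the WT library of batch 1, 7 of 58 members were called higher in differentiated granule neurons, against 0.198% of all genes, where WT was then represented by the batch 2 library alone.

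The S phase state was finally compared within GNPs and within CPs, with library as a block. The CPs were a pool of the annotated CP subpopulations, whose shares can differ between the high and the low state. The part of the subpopulations in the CP results was not tested. Nuclei were thinned to 1500 UMIs and scored on 43 genes of the S phase, none of them a member, and nuclei of a high S phase state (at least 10 thinned UMIs in GNPs, 3 in CPs) were compared with nuclei of a low state (at most 6 and 1). The high state held 1835 of 9180 scored GNPs (20.0%) and 2044 of 12476 scored CPs (16.4%). It is a range of a score, since 554 GNPs and 895 CPs lay at the limit itself. The low state was set by the S phase score alone, so nuclei high for genes of the G2 and M phases were not left out of it. The comparison is thus not one of cycling with resting nuclei. In GNPs the summed histone level was higher in the high state in 4 of 4 libraries, at 2790 against 2512 CPM and 2080 against 1775 CPM in the WT libraries of batches 1 and 2 and at 2913 against 2621 CPM and 1943 against 1653 CPM in the Tbx1+/- libraries (log2 ratio 0.19 ± 0.05). In CPs it was 394 against 308 and 369 against 225 CPM in WT, and 314 against 247 and 472 against 288 CPM in Tbx1+/- (0.53 ± 0.21). High nuclei were shallower than low nuclei in GNPs, with median depths of 2248 to 2905 against 2393 to 3018 UMIs over the libraries. In CPs they were deeper, at 4091 against 3713 and 4462 against 4131 UMIs in the WT and Tbx1+/- libraries of batch 1 and at 5221 against 4442 and 5264 against 4469 UMIs in those of batch 2, where the histone ratio was also larger. The part of depth in this was not tested.

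In GNPs 7 of 54 members were called higher in the high state and none lower, a share near the background of 10.8%. They were the linker histone genes Hist1h1b (log2 change 0.39 ± 0.05), Hist1h1a (0.84 ± 0.14) and Hist1h1e (0.20 ± 0.05), the H4 genes Hist1h4i (0.72 ± 0.11) and Hist1h4d (0.20 ± 0.06), the H2B gene Hist1h2bm (0.48 ± 0.13) and the H3 gene Hist1h3e (0.32 ± 0.12). DESeq2 called 3 of the 54, and 2 were called without the library block. In CPs 12 of 35 members were called higher, against a background of 12.5%, and none lower, while DESeq2 called 8 and the fit without the block 5. Hist1h1b was at 27.1 and 20.9 CPM in the low and at 60.8 and 71.2 CPM in the high nuclei of the WT libraries, and at 24.5 and 25.8 CPM against 35.9 and 68.2 CPM in the Tbx1+/- libraries, higher in 4 of 4 (1.24 ± 0.12, adjusted p = 2.48e-08 by edgeR). Hist1h2ap rose by 1.22 ± 0.16, Hist1h4i by 1.48 ± 0.21, Hist1h1a by 1.59 ± 0.27 and Hist1h1d by 1.12 ± 0.20, all higher in 4 of 4 libraries. Of the H1 genes, 4 of 5 tested were called in CPs, and Hist1h1c was not (0.12 ± 0.10). Nor did Hist1h2bc (-0.03 ± 0.11), Hist1h4h (-0.15 ± 0.16) or Hist3h2ba (-0.46 ± 0.22) pass. In GNPs Hist1h1c changed by 0.01 ± 0.10 and Hist3h2ba by -0.20 ± 0.10, also below the threshold. CPs high for both the S phase genes and 54 genes of the G2 and M phases (805 nuclei) had the highest summed level, 528 ± 112 CPM, against 262 ± 37.7 CPM in CPs high for neither, and CPs high for the S phase genes only were at 273 ± 39.7 CPM, below the 363 ± 75.2 CPM of CPs high for the G2 and M phase genes only. In GNPs the same 4 states were at 2721 ± 530, 2142 ± 512, 2402 ± 483 and 2468 ± 462 CPM. In WT, CPs high for the S phase genes only were at 297.8 and 220.6 CPM in batches 1 and 2, against 303.7 and 220.5 in those high for neither. In Tbx1+/- they were at 264.7 and 308.8 against 241.5 and 281.8 CPM. CPs high for both had median depths of 4468 to 6334.5 UMIs over the libraries, against 3709 to 4443 in those high for neither. The part of depth was not tested.

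**Figure D5:**
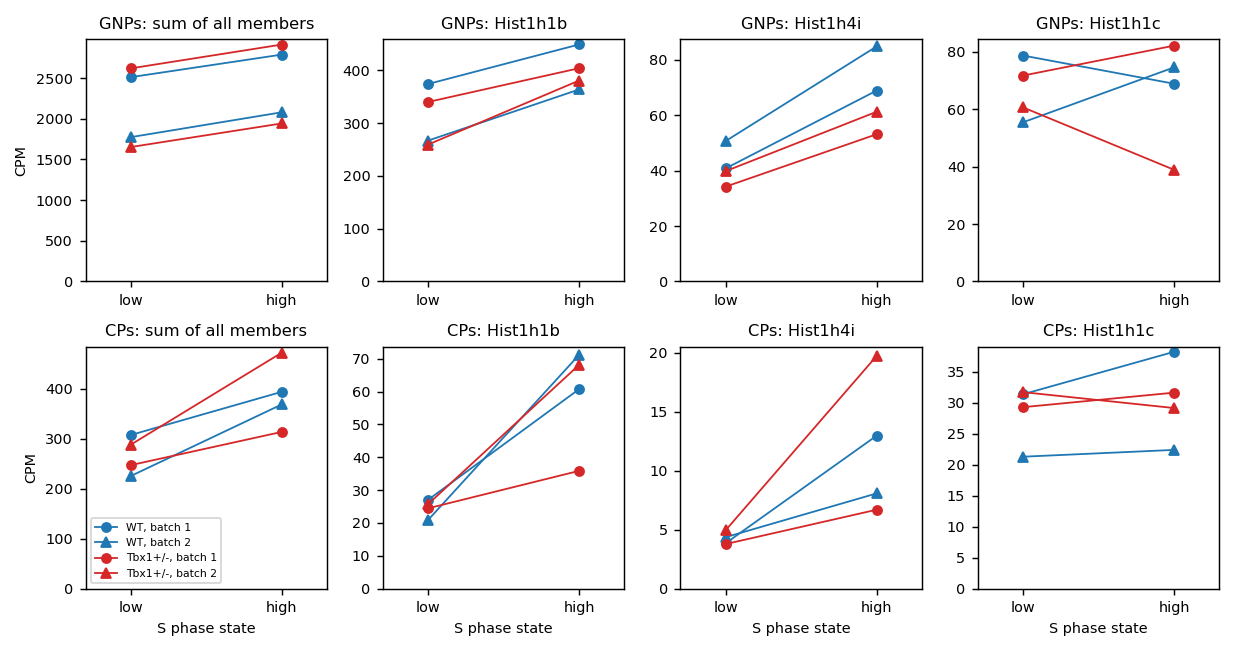
CPM in nuclei of the low and the high S phase state (x axis) for the sum of all members, Hist1h1b, Hist1h4i and Hist1h1c, in GNPs (top) and CPs (bottom), 1 line per library, each y axis from 0. The sum, Hist1h1b and Hist1h4i are higher in the high state in 4 of 4 libraries of both types, whereas the lines of Hist1h1c run in both directions.

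Many, but not all, other genes of the pathway were called higher in the high S phase state. Of 34 genes for histone mRNA processing, chaperones and cyclin E/Cdk2 control, 5 set the score itself and were left out. Of the 27 others tested, 15 were called higher in the high state in GNPs and 21 in CPs, and none lower, where 10.8% and 12.5% of all genes were called higher. Hat1, which acetylates new H4, changed by 0.96 ± 0.07 in GNPs and 1.22 ± 0.07 in CPs, and Asf1b, a chaperone of H3 and H4, by 0.78 ± 0.11 and 3.04 ± 0.19. The chromatin assembly subunit Chaf1a changed by 0.92 ± 0.10 and 1.91 ± 0.14, and E2f1, a transcription factor of the G1/S transition, by 0.58 ± 0.06 and 2.36 ± 0.14. Among 11 replication-independent histone genes tested, 4 were called higher and 1 lower in GNPs and 7 higher in CPs. Cenpa, the H3 variant of centromeres, was the one called lower in GNPs (-2.01 ± 0.10) and was higher in CPs (1.60 ± 0.11). For the batch in the PF/F, 13 of 33 processing and chaperone genes were called lower and 1 higher over all nuclei (14.8% of all genes lower), with a median log2 change of -0.23 against -0.85 for the members, led by the H3-H4 chaperone gene Nasp (-0.65 ± 0.05) and Supt16 (-0.49 ± 0.05). In GNPs 3 of 33 were lower and 1 higher, a share near the 9.64% of all genes, and in differentiated granule neurons 10 of 32 were lower and 1 higher, against 12.3% of all genes lower. Of 11 replication-independent histone genes tested, 9 were called lower over all PF/F nuclei (median -0.48), 5 lower and 1 higher in GNPs (median -0.23) and 8 lower in differentiated granule neurons (median -0.50), against the same shares of all genes. None of either list was called by batch in the PTB or by genotype in any of the 6 fits, with 2 to 6 at an unadjusted p under 0.05 in the PTB batch fits and none for genotype.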

How the data were processed

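The deposited raw UMI counts per gene and nucleus were used. Per the study's methods, the authors prepared Chromium 3′ v3.1 libraries from frozen tissue (bone pulverised, PF/F chopped), and Cell Ranger 7.0.0 counted reads on mm10 with introns. The deposited counts precede the authors' correction for ambient RNA, and no doublet removal is described. Cell types are the authors' deposited annotation, used as given. UMIs were summed per library and type and tested with edgeR 4.0.16 (R 4.3.3; TMM, filterByExpr, quasi-likelihood, adjusted p under 0.05), with DESeq2 1.42.0 as an alternative. The test was tested on simulated data first. Members and gene lists were chosen with earlier results of these data known. Genes named were the highest and lowest of each comparison, every called member or the 5 smallest p-values beyond 10 calls, the 3 smallest without a call, and Hist1h1c, Hist1h2bc, Hist1h4h, Hist2h2be, Hist3h2a, Hist3h2ba, Hist4h4 and Hist1h1t. The study states that nuclei were measured in 2 separate batches of mice, taken here as the replicate number, which pairs the genotypes: deviations of same-numbered libraries correlated at r = 0.711 across genes in the PF/F and 0.553 in the PTB. Positions and transcripts are from GENCODE (GRCm38), promoters from RefSeq. Thinning used a fixed random seed, and 224 GNPs and 7 CPs under 1500 UMIs were left out. Intervals and limits for 0 counts cover counting error only.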

Additional observations from a re-analysis of the deposited data

Results flagged for a closer look

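The change from batch 1 to batch 2 differed between the tissues for 11 members in a test of the difference itself (edgeR, tissue by batch interaction over all annotated nuclei, chosen after seeing the data). Of all genes, 0.768% were called in the same direction. With genotype within tissue as a further term, only 1 member was called. The log2 change in the PF/F less that in the PTB was -1.11 for Hist1h1b, -1.07 for Hist1h1e, -1.76 for Hist1h3f, -1.52 for Hist1h3e, -1.84 for Hist1h2an, -1.56 for Hist1h2ae, -1.59 for Hist1h2ab, -0.97 for Hist2h2ac, -0.93 for Hist1h2bj, -2.23 for Hist1h2ap and -0.76 for Hist2h2bb, at adjusted p-values of 0.0176 to 0.0396 by edgeR. Each was called lower in batch 2 in the PF/F, from -0.60 for Hist1h1e to -1.31 for Hist1h2an, and none was called in the PTB, where the values ran from -0.30 for Hist2h2bb to 1.45 for Hist1h2ap. None of the 11 was called without any 1 of the PF/F libraries.

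The summed histone cluster level of CPs moved in opposite directions from batch 1 to batch 2 in the genotypes, with a log2 change in Tbx1+/- less that in WT of 0.71. With 1 library per genotype and batch, this difference was not tested.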

How the results depend on the processing

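With the replicate number as a block, the genotype calls stayed at 0 in all 6 fits. In the batch comparison the replicate number is itself the contrast, so genotype was the added term, and the calls stayed within 1.5 times their count. By contrast, the S phase state without its library block called 2 members in GNPs and 5 in CPs, and the tissue by batch interaction with genotype within tissue called 1, while the mice as a block over both tissues left 11. DESeq2 called 12 members by batch in GNPs, 2 over all PTB nuclei and 1 in osteoblasts, and 3 by S phase state in GNPs. Without a filter on low counts 2 were called by batch in CPs, and a high state of at most 10% of nuclei left 4 in GNPs. Restricting GNPs to nuclei with at least 2000 genes gave a log2 batch ratio of the sum of -0.36. Leaving out 1 library at a time gave 0 to 7 members by genotype in differentiated granule neurons, 1 to 3 by batch over all PTB nuclei, 0 to 3 in CPs and 0 to 1 in osteoblasts, and 0 to 13 in the interaction. Under the same omission the genotype change of Hist1h3c ran from -0.071 to 0.75 over all PF/F nuclei and from -0.0063 to 0.81 in differentiated granule neurons, and it turned negative without the Tbx1+/- library of batch 1. The causes were not tested. Counts of members in this section stand without the share of all genes called in the same fit. Of the single-member values under an alternative, 480 kept direction and side of the threshold, 50 lost and 15 gained it, and 2 reversed. With 2 libraries per group, each omission leaves a group with 1 library, assumed to vary like the others.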
